A study of Homo sapiens with 5 samples.

Results

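The mitochondrial ribosomal protein genes were taken as every row of the raw count table whose symbol was MRPL or MRPS followed by a number and, in some cases, a letter from A to C. This rule found 77 of the 26485 genes in the table, 48 with an MRPL symbol and 29 with an MRPS symbol. The rule used the symbol alone and no measured value. By function, 50 of the 77 encode proteins of the large subunit, since MRPS30 and MRPS18A sit there despite their names, 26 encode proteins of the small subunit, and MRPS36 is now assigned to the 2-oxoglutarate dehydrogenase complex and not to the ribosome.

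Mitochondria have their own ribosome. It translates the few proteins that mitochondrial DNA encodes, which are core subunits of the respiratory chain and of ATP synthase. Its rRNA is transcribed in the organelle, but all of its proteins are encoded in the nucleus, translated in the cytosol and imported, so that the particle depends on both genomes. Some of its proteins have counterparts in the bacterial ribosome, and others were gained in the evolution of mitochondria.

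RNA-seq was performed on wild-type RPE1 cells, a cell line established from human retinal pigment epithelium, to examine the expression response to doxorubicin, an anthracycline that intercalates into DNA and poisons topoisomerase II. The cells were treated for 18 h with the solvent DMSO (2 libraries), with 0.2 μM doxorubicin (2 libraries) or with 0.34 μM doxorubicin (1 library). The doses are those of the sample labels. RNA was selected for poly-A tails, and raw counts of reads per gene were available.

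The total counts on genes were between 23773061 and 36725345 per library. The treatment was visible in the genes fixed as a check. CDKN1A and MDM2, both targets of p53, rose by 3.39 and 2.19 on the log2 scale, and the mitotic genes PLK1 and CCNB1 fell by 5.54 and 3.87, each with an adjusted p under 0.01 in edgeR's quasi-likelihood test. Of these 4 calls, only that of PLK1 held without each library in turn. Of the 10 markers of retinal pigment epithelium, MITF had 743 to 1503 counts and OTX2 601 to 887 counts per library. RPE65 had 3 to 8 counts, RLBP1 0 to 3, LRAT 1 to 25, TYR 0 to 5 and TYRP1 1 to 7, so that these visual cycle and pigment genes were near 0. BEST1 had 26 and 14 counts under DMSO and 86, 30 and 142 under doxorubicin. The pigment gene PMEL had 7 and 5 against 22, 32 and 46. SERPINF1 had 4 to 29 counts, and the keratins KRT8 and KRT18 had 6076 to 23990. Markers of other cell types were low in most libraries. EPCAM had at most 1 count, MLANA 5 to 12 and PECAM1 3 to 13, whereas PTPRC went from 5 and 7 under DMSO to 25, 53 and 72 under doxorubicin.

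The regions upstream of these genes are shown first, because several results below concern genes that start back to back with a neighbour. RefSeq promoters (GRCh38.p14) were matched for 68 of the 77 genes. Short motifs were searched on both strands from 250 bases before to 50 bases after the start. The letters CCGGAAG, the core bound by ETS factors such as GABP, were present in 28 of 68 promoters (41.2%), against 18.5% of the 10362 promoters of genes tested and 10.7% of all 27305 promoters. The letters ATGGCGG, a core of YY1 sites, were in 23 (33.8%), against 10.0% of tested genes. The letters GCATGCG, part of the NRF1 site, were in 7 (10.3%), against 6.35%, and the E-box CACGTG was in 6 (8.82%), against 9.87%. At least 1 of the 4 was found in 48 of 68 promoters (70.6%), against 36.8% of the promoters of tested genes. These are matches of letters, and binding was not measured here.

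In the sequences below, written 5′ to 3′ on the strand of the gene and ending at the base before the annotated start, capitals mark these motifs. Bases that RefSeq places inside another gene were left out. MRPL22 and MRPL53 are shown as the members with the smallest p on the lower and the higher side among those with at least 40 such bases. MRPL57, MRPL27 and MRPL51 are shown because a gene that starts close by on the opposite strand was far lower in doxorubicin. MRPS11 is shown because it faces another member, MRPL46.
MRPL22 (chr5:154940823-154941072, plus strand): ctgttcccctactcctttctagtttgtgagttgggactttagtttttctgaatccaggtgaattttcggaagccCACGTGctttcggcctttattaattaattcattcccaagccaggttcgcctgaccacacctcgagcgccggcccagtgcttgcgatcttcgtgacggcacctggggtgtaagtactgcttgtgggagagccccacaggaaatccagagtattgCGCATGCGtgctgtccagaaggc
MRPL53 (chr2:74472681-74472831, minus strand): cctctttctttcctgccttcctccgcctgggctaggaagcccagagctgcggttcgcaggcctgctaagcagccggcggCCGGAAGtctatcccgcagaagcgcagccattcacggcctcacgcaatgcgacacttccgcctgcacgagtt
MRPL57 (chr13:21176553-21176657, plus strand): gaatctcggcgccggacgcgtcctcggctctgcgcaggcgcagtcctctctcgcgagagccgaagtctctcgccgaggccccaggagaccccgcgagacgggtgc
MRPL27 (chr17:50373185-50373228, minus strand): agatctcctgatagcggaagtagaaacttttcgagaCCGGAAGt
MRPL51 (chr12:6493263-6493512, minus strand): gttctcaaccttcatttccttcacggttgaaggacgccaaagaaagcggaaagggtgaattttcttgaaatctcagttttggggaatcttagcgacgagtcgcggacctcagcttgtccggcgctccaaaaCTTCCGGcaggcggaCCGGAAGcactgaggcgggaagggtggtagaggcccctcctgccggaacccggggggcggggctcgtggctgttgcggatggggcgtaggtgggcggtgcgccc
MRPS11 (chr15:88467458-88467707, plus strand): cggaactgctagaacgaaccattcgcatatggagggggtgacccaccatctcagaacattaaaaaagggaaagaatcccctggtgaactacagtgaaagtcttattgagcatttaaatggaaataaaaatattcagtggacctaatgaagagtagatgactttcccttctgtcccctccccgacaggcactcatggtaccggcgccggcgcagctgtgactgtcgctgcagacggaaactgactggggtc

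The MRPL22 promoter holds CACGTG from 176 bases before the start and GCATGCG on both strands, overlapping, from 23 and 22 bases before it. The MRPL53 stretch holds 1 CCGGAAG, from 72 bases before the start. In the 44 bases between MRPL27 and its neighbour the single CCGGAAG begins 8 bases before the start, and the MRPL51 promoter holds it once on each strand, 119 and 104 bases before the start. None of the 4 motifs was found in the stretches of MRPL57 and MRPS11.

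No mitochondrial ribosomal protein gene passed the test after 18 h of doxorubicin, and their fold changes were small and balanced around 0. The lowest values were those of MRPS34 and MRPL3, and on the higher side MRPL53 had the smallest p by edgeR. In edgeR's quasi-likelihood test of the 3 doxorubicin against the 2 DMSO libraries, 4.02% of the 14187 genes tested had an adjusted p under 0.01 (1.29% higher and 2.73% lower), and 0 of the 77 did. All 77 passed the filter on low counts. The lowest adjusted p among them was 0.0241. At an unadjusted p under 0.05, edgeR found 10 of 77 (13.0%), 3 higher and 7 lower, against 30.8% of all genes (15.2% higher and 15.6% lower). DESeq2 called 14.6% of all genes at an adjusted p under 0.01 (8.02% lower) and 2 of the 77, both lower, and limma voom called 3.71% and 0.

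The log2 fold changes of the 77 genes had a median of 0.008, with 39 above 0 and 38 below. The quartiles were -0.16 and 0.19, and all values lay between -0.71 (MRPS34) and 0.64 (MRPS24). Over all genes tested the median was 0.01 and the quartiles -0.35 and 0.41. The median size of the change, whatever its sign, was 0.18 for the 77 genes and 0.38 for all genes. No member changed by more than 1 on the log2 scale, against 15.4% of all genes. For 67 members (87.0%) the whole 95% interval of the fold change lay within 2-fold in either direction, against 49.4% of all genes. The interval reached 0.32 to 1.26 to either side of the estimate, with a median of 0.46 (0.55 over all genes). A change smaller than that in a single gene could not be told from 0 with these 5 libraries. These intervals are not adjusted for the number of genes tested, so a call at an adjusted p under 0.01 needed a larger change. MRPS34, with an interval from -1.06 to -0.37, was not called by edgeR. In bulk RNA, fewer cells of a type and less RNA per cell cannot be told apart, and values in CPM (counts scaled to a common library total) are shares of each library's RNA.

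**Figure D1:**
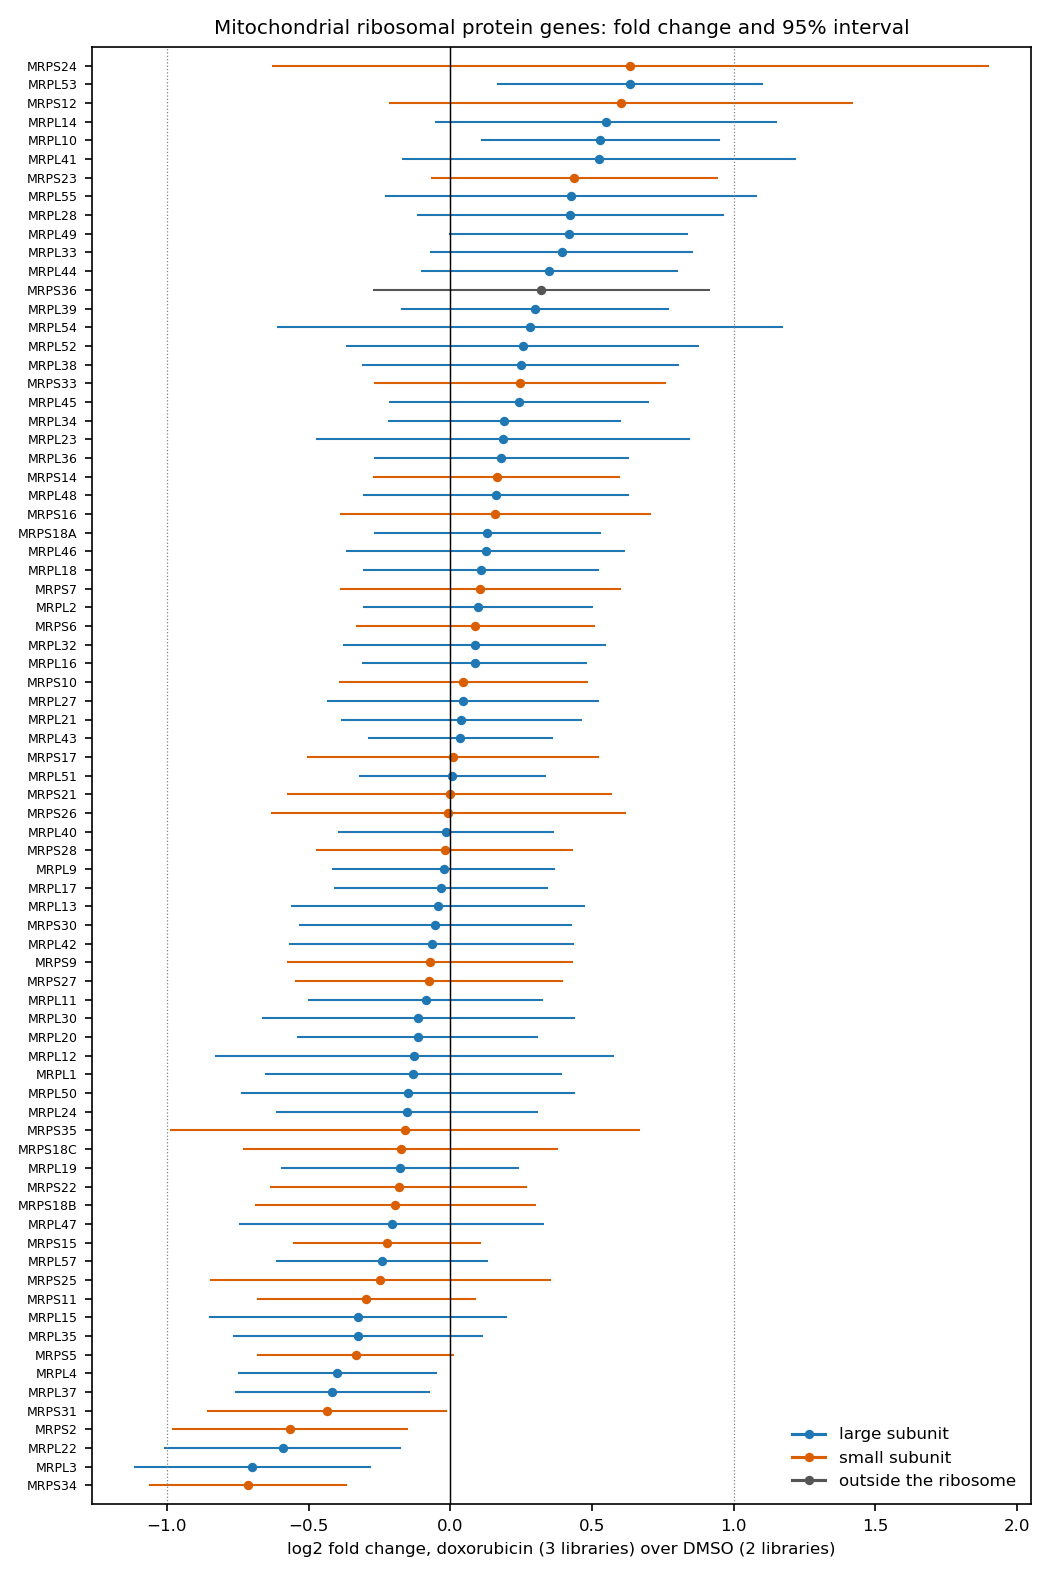
Log2 fold change of each of the 77 mitochondrial ribosomal protein genes, doxorubicin (3 libraries) over DMSO (2 libraries), with its 95% interval from edgeR, ordered by fold change and coloured by subunit. The points run from -0.71 to 0.64, and 67 of the intervals lie within the dotted lines at 2-fold lower and 2-fold higher.

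The doxorubicin libraries lay wholly above or wholly below the DMSO libraries for 47.7% of all genes (24.3% higher and 23.4% lower). Among the 77 this was so for 20 (26.0%), 9 of them higher and 11 lower. The 11 lower genes were MRPS34, MRPL3, MRPL22, MRPS2, MRPS31, MRPL37, MRPL4, MRPS5, MRPS11, MRPL57 and MRPS15, of which 6 belong to the small subunit and 5 to the large subunit. The 9 higher genes were MRPL53, MRPS12, MRPL14, MRPL10, MRPS23, MRPL28, MRPL49, MRPL33 and MRPL44, of which 7 belong to the large subunit.

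The lowest value belonged to MRPS34, a mitochondria-specific protein of the small subunit (chr16:1771895-1773134). Its level was 60.2 and 63.1 CPM in DMSO, 40.6 and 34.9 CPM at 0.2 μM and 37.3 CPM at 0.34 μM. All 3 doxorubicin libraries lay below both DMSO libraries, with a gap wider than the spread within either treatment. The means were 61.6 ± 2.08 CPM (SD, n = 2) and 37.6 ± 2.87 CPM (SD, n = 3), a log2 fold change of -0.71 (SE 0.15) with an adjusted p of 0.0241 by edgeR and 0.00027 by DESeq2. MRPS34 was therefore past the threshold of 0.01 with DESeq2 and not with edgeR. The sign was the same without each library in turn, from -0.77 to -0.66. The gene overlaps EME2, and its reads could include some of that gene.

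MRPL3, a large-subunit protein whose bacterial counterpart reaches toward the peptidyl transferase centre (chr3:131462212-131502971), came next. It had 98.4 and 115.7 CPM in DMSO, 62.0 and 77.4 CPM at 0.2 μM and 58.4 CPM at 0.34 μM. The groups did not overlap, and the highest doxorubicin library was the second one at 0.2 μM. The log2 fold change was -0.70 (SE 0.17), with an adjusted p of 0.0443 by edgeR and 0.00562 by DESeq2. These 2 genes were the only members under 0.05 after adjustment in edgeR, against 13.6% of all genes, 7.48% in the lower direction.

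MRPL22 encodes a protein of the polypeptide exit tunnel (chr5:154941073-154969411). It lay at 22.8 and 21.7 CPM in DMSO, at 14.04 and 16.6 CPM at 0.2 μM and at 13.7 CPM at 0.34 μM. MRPS2, with a bacterial counterpart in the small subunit (chr9:135499965-135504673), lay at 33.9 and 43.8 CPM in DMSO, 24.4 and 27.6 CPM at 0.2 μM and 26.7 CPM at 0.34 μM. In both genes every doxorubicin library was below every DMSO library, and the doxorubicin values were closer to each other than to the controls. The log2 fold changes were -0.59 (SE 0.17) for MRPL22 and -0.57 (SE 0.17) for MRPS2. With edgeR the adjusted p was 0.0686 and 0.0769, so neither passed.

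Of the other lower genes, MRPL37 was the most highly expressed. It encodes a mitochondria-specific protein of the large subunit and was at 113.5 and 94.8 CPM in DMSO against 75.7, 81.0 and 77.3 CPM in doxorubicin, a log2 fold change of -0.42 (SE 0.14). MRPL4, whose bacterial counterpart lines the exit tunnel, was at 46.0 and 44.2 CPM against 33.9, 32.4 and 36.5 CPM, and MRPS31 at 15.2 and 14.3 CPM against 10.4, 11.4 and 10.8 CPM. Their log2 fold changes were -0.40 and -0.44. For these 3 genes the 95% interval excluded 0, but the adjusted p by edgeR was between 0.1023 and 0.1497. MRPS5, MRPS11, MRPL57 and MRPS15 had smaller differences, from -0.33 to -0.22, and intervals that included 0.

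On the higher side, MRPL53, a mitochondria-specific protein beside the stalk of the large subunit (chr2:74471982-74472680), had the smallest p. It was at 13.0 and 16.2 CPM in DMSO, 19.8 and 24.9 CPM at 0.2 μM and 23.3 CPM at 0.34 μM, and no doxorubicin library reached down to the controls. The log2 fold change was 0.63 (SE 0.20), with an adjusted p of 0.078 by edgeR. MRPL10, which anchors the copies of MRPL12 in the stalk (chr17:47823272-47831541), was at 25.6 and 32.0 CPM in DMSO, 39.2 and 45.7 CPM at 0.2 μM and 39.7 CPM at 0.34 μM. Its log2 fold change was 0.53 (SE 0.18), with an adjusted p of 0.0934 by edgeR. Neither passed the threshold, and both kept the sign without each library in turn.

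For 3 other genes with large positive values, 1 DMSO library set the size. MRPS12, a protein of the decoding centre, was at 7.97 and 18.4 CPM in DMSO, 20.8 and 18.9 CPM at 0.2 μM and 20.5 CPM at 0.34 μM. The second DMSO library lay just under the doxorubicin libraries, and the first lay far below. The log2 fold change of 0.60 (SE 0.34) became 0.11 without the first DMSO library and 1.31 without the second. MRPL14, a protein at the interface between the subunits, was at 19.0 and 32.6 CPM against 34.5, 41.5 and 37.1 CPM, with a log2 fold change of 0.55 (SE 0.25) that lay between 0.20 and 0.97 on leaving out a library. MRPS24, whose largest estimate of 0.64 (SE 0.53) had the widest interval of all members, was at 0.99 and 2.35 CPM in DMSO and 1.43, 3.41 and 2.95 CPM in doxorubicin. Its groups overlapped, it was the only member with under 100 counts in any library (the lowest was 26), and it shares exons with the readthrough gene URGCP-MRPS24. The adjusted p by edgeR was 0.195 for MRPL14, 0.285 for MRPS12 and 0.465 for MRPS24.

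Along the structure of the ribosome, genes for neighbouring proteins did not share 1 sign. The 4 stalk genes, whose proteins contact the translation factors, had MRPL53 and MRPL10 above, MRPL11 at -0.09 and MRPL12 at -0.13. MRPL12 was at 25.3 and 51.2 CPM in DMSO and at 37.7, 35.8 and 31.5 CPM in doxorubicin, so that all 3 treated libraries fell between the controls. Around the tunnel exit, MRPL22 lay lowest, MRPL47 was at -0.21 and MRPL24 at -0.15, while MRPL23 was at 0.19 and MRPL45, which lies where the ribosome meets the inner membrane, at 0.24. MRPL23 had the same shape as MRPL12, with 26.6 and 50.7 CPM in DMSO around 47.7, 40.7 and 43.5 CPM in doxorubicin, and it overlaps H19 in the annotation. The 3 paralogues of the bacterial S18 protein were at 0.13 (MRPS18A), -0.19 (MRPS18B) and -0.18 (MRPS18C). MRPS30 was at -0.05, MRPL32, which the AFG3L2 protease matures, at 0.09, and MRPS36 at 0.32. The adjusted p by edgeR was above 0.4 for each of MRPL11, MRPL12, MRPL23, MRPL24, MRPL32, MRPL45, MRPL47, MRPS18A, MRPS18B, MRPS18C, MRPS30 and MRPS36.

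By subunit, the median log2 fold change was 0.04 for the 50 large-subunit genes (28 above 0 and 22 below) and -0.05 for the 26 small-subunit genes (10 above and 16 below). Within the large subunit, the 30 genes with a bacterial counterpart had a median of -0.03 and the 20 mitochondria-specific genes 0.15, of which 14 were above 0. Within the small subunit the order was the other way, with 0.003 for the 16 genes with a bacterial counterpart and -0.17 for the 10 mitochondria-specific genes, of which 8 were below 0. These medians are descriptions, and their differences were not tested. Both subunit medians changed sign with the DMSO library used. Without the first DMSO library they were -0.11 for the large and -0.19 for the small subunit, and without the second 0.11 and 0.06.

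Expression per length of the transcript, in CPM per kb of the GENCODE canonical transcript, differed widely among genes whose proteins are mostly present once per ribosome. In DMSO the median was 21.7 CPM per kb, and the range ran from 2.50 for MRPS24 to 83.0 for MRPL51. MRPL33 (70.5), MRPL37 (70.2), MRPS6 (65.7), MRPL3 (62.7) and MRPS34 (61.8) followed MRPL51. In doxorubicin MRPL51 was at 83.5 CPM per kb and MRPL33 at 92.6, while MRPL37 was at 52.6, MRPL3 at 38.6 and MRPS34 at 37.7. Of the 6 highest genes of the control cells, MRPL37, MRPL3 and MRPS34 were among the 11 that lay lower in every doxorubicin library. MRPL33 was among the 9 that lay higher, and the groups of MRPL51 and MRPS6 overlapped. The 11 are 14.3% of the members, against 23.4% of all genes. The ranking rests on the same DMSO libraries as that comparison, which favours lower values in doxorubicin, so it shows no tie between level and response. These levels assume the canonical transcript, and the isoforms used in these cells were not measured.

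The replicates differed from each other by as much as the treatments did. In DMSO, 63 of the 77 genes were higher in the second library, with a median log2 difference of 0.25 (0.007 over all genes). At 0.2 μM, 57 of 77 were higher in the second library, with a median of 0.21 (0.02 over all genes). In all, 47 genes were higher in the second library of both pairs. The summed level of the 77 genes was 2387 and 2911 CPM in DMSO, 2484 and 2858 CPM at 0.2 μM and 2481 CPM at 0.34 μM. The second library of each pair was high and the other 3 libraries were close together, whatever the treatment. For 52 of the 77 genes the DMSO pair differed by more than the treatments did, against 49.0% of all genes. The median fold change moved with the control library used, from -0.14 without the first DMSO library to 0.10 without the second. Among the markers of other cell types, CDH5, an endothelial cadherin, had 56 and 69 counts in the second libraries and 2, 4 and 5 in the others, while EPCAM had 0 or 1 in each, PTPRC 5 and 7 in DMSO and 25 and 53 at 0.2 μM, PECAM1 3 and 6 and then 7 and 11, and MLANA 5 and 5 and then 5 and 12. The part of either difference in the other was not tested.

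**Figure D2:**
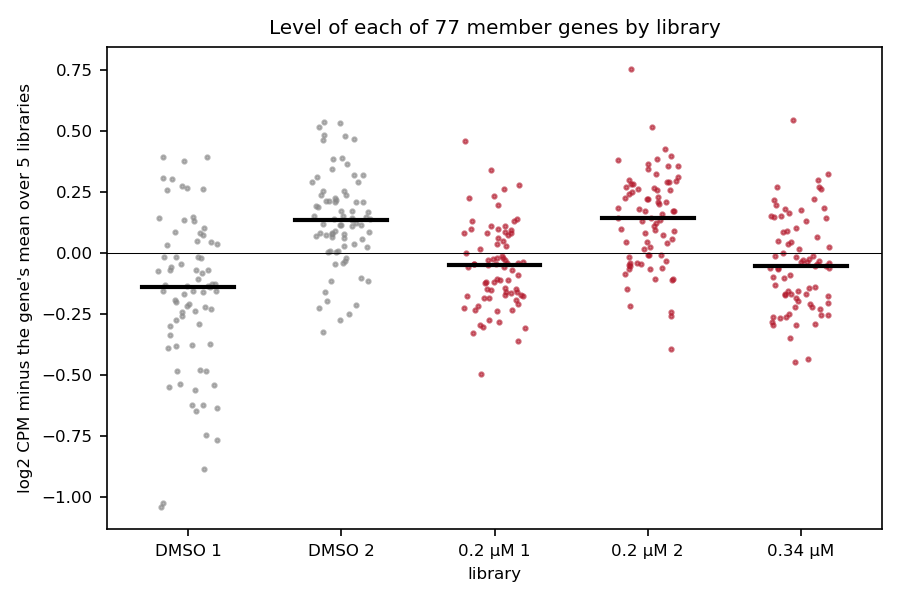
Level of each of the 77 genes in each of the 5 libraries, as log2 CPM minus the gene's mean over the libraries, with the median of each library as a line. The medians were -0.14 and 0.14 in the DMSO libraries, -0.05 and 0.15 at 0.2 μM and -0.05 at 0.34 μM, so that the second library of each pair lies highest.

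Base composition differed along with these replicate differences. Across the 77 genes (n = 77), the difference between the 0.2 μM libraries correlated with the GC content of the canonical transcript at r = -0.60 and rho = -0.65, and the difference between the DMSO libraries at r = 0.38 and rho = 0.32. The points share the same libraries, so these values are descriptions. The fold change between treatments had r = 0.23 with GC content and r = -0.31 (rho = -0.37) with the logarithm of transcript length. The part of base composition in the fold changes was not tested. The 77 genes are short, with a median transcript of 1260 nt against 3314 nt for the genes tested, and a median genomic span of 8667 bp against 29430 bp, while their median GC content (48.0%) was near that of all genes (48.3%). Over all genes tested, the median log2 fold change went from 0.13 in the shortest of 4 equal bins of span to -0.11 in the longest. The members in these bins (43, 21, 9 and 4) had medians of 0.05, -0.002, -0.07 and -0.05.

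Between the doses, no difference among the 77 genes was found, in a comparison that could detect little. In a fit of 3 conditions, the comparison of 0.34 μM with 0.2 μM gave 0 genes of any kind at an adjusted p under 0.01 with edgeR, DESeq2 or limma voom. At an unadjusted p under 0.05 the counts over all genes were 22 (0.155%), 26 (0.183%) and 14 (0.0987%), and 0 members were among them with any of the 3 tools. The single 0.34 μM library was assumed to vary like the others. The median log2 difference of the 77 genes was -0.09, with 23 above 0. It was 0.003 against the first 0.2 μM library and -0.18 against the second, the library in which these genes were high. The smallest unadjusted p belonged to MRPS35, a mitochondria-specific protein of the small subunit. It was at 38.9 and 68.2 CPM at 0.2 μM and at 35.3 CPM at 0.34 μM, and the DMSO libraries, at 39.5 and 66.6 CPM, were as far apart. The log2 difference was -0.60, with an unadjusted p of 0.227 and an adjusted p of 1.00 by edgeR. Set against the same DMSO libraries, the members' median was 0.03 at 0.2 μM and -0.03 at 0.34 μM.

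The other genes of mitochondrial translation were read from lists compiled from general knowledge. Of 6 further mitoribosomal proteins that the symbol rule does not match, 0 were called by edgeR or DESeq2, and 0 had an unadjusted p under 0.05 with edgeR. Among them DAP3, a GTP-binding protein of the small subunit, was at 57.6 and 56.6 CPM in DMSO and at 60.9, 60.7 and 54.7 CPM in doxorubicin, and PTCD3 was at 53.4 and 50.3 CPM against 48.3, 63.1 and 50.8 CPM, with overlapping groups in both, while GADD45GIP1, at -0.40, had the largest difference, also with overlapping groups. Their median was -0.07, with 2 above 0 and 4 below. No gene was called by edgeR among 16 translation factors (median 0.05, 9 above and 7 below), 27 assembly and rRNA maturation factors (-0.02, 13 and 14), 14 genes of mitochondrial transcription and RNA processing (0.03, 7 and 7) and 20 mitochondrial aminoacyl-tRNA synthetases (0.06, 13 and 7). At an unadjusted p under 0.05 edgeR found 3, 1, 1 and 2 genes in these 4 lists, against 30.8% of all genes. The DESeq2 call among them was C12orf65, a peptide release factor family member that rescues stalled mitochondrial ribosomes. It was at 21.3 and 19.0 CPM in DMSO against 12.6, 12.1 and 12.04 CPM, a log2 fold change of -0.72 (SE 0.17) with an adjusted p of 0.0366 by edgeR and 0.00195 by DESeq2.

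The respiratory chain, whose core subunits the mitochondrial ribosome makes, lay higher than the ribosome's own genes. Of its 75 nuclear-encoded genes, 58 were above 0, with a median log2 fold change of 0.24, and in 37 all doxorubicin libraries lay above DMSO, against 3 below (24.3% and 23.4% of all genes). At an adjusted p under 0.01 edgeR called 0 of them (4.02% of all genes) and DESeq2 4, all higher. DESeq2 called 14.6% of all genes in either direction, and 935 of the 14187 were higher. At an adjusted p under 0.05 by edgeR there were 3, all higher, against 13.6% of all genes in either direction (866 of 14187 higher). Of these, NDUFA4, a subunit of cytochrome c oxidase, was at 49.7 and 66.5 CPM in DMSO and at 103.0, 98.3 and 110.9 CPM in doxorubicin, with a log2 fold change of 0.84 (SE 0.17) and an adjusted p of 0.0251. The others were NDUFC1 (0.68) and NDUFA13 (0.59), both subunits of complex I. The 79 cytosolic ribosomal protein genes had a median of 0.21, with 62 above 0, and edgeR called 0 and DESeq2 1. At an unadjusted p under 0.05 edgeR found 22 of the 75 respiratory chain and 10 of the 79 cytosolic ribosomal genes. Over all genes the share was 30.8% in either direction and 15.2% higher. All of the 22 but NDUFA6, and all of the 10, were higher. On the higher side the share was thus above that of all genes for the respiratory chain and slightly below it for the cytosolic ribosome. Without the second DMSO library the median was 0.35 for the respiratory chain and 0.32 for the cytosolic ribosome, and without the first 0.14 and 0.10, so these medians stayed above 0. The difference between the lists was not tested. The transcripts that mitochondrial DNA encodes were not analysed here.

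**Figure D3:**
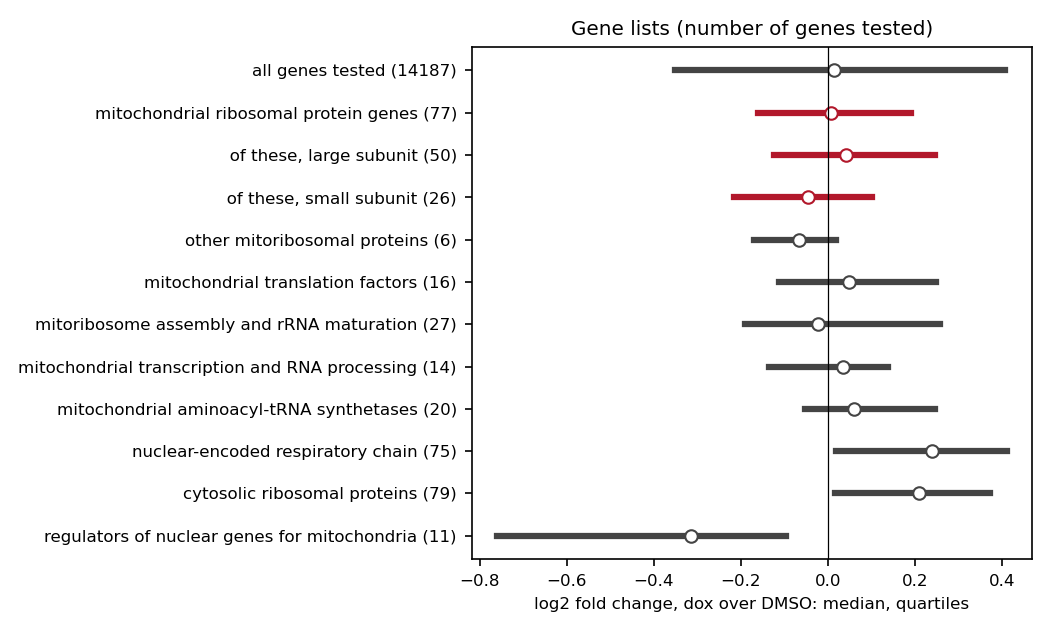
Median (circle) and quartiles (bar) of the log2 fold change, doxorubicin over DMSO, for each gene list, with the number of genes tested in brackets. The mitochondrial ribosomal protein genes centre at 0.008, the respiratory chain and the cytosolic ribosomal proteins at 0.24 and 0.21, and the regulators at -0.31.

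Transcription factors and coactivators known for their action on nuclear genes for mitochondria were lower on the whole, with a median of -0.31 over the 11 tested and 8 below 0. In all 8, every doxorubicin library lay below both DMSO libraries, as in 23.4% of all genes. E2F1, better known as a cell cycle regulator, fell by 2.62 on the log2 scale with an adjusted p of 0.00772 by edgeR, a call that held on leaving out the first DMSO library and was lost without any of the other 4. NRF1, whose site was counted above, was at 13.96 and 16.5 CPM in DMSO and 6.65, 6.94 and 5.40 CPM in doxorubicin, a log2 fold change of -1.27 (SE 0.21) with an adjusted p of 0.013 by edgeR and 9.8e-06 by DESeq2. GABPB1, a subunit of the GABP complex, was at 20.3 and 22.9 CPM against 10.9, 12.6 and 9.78 CPM, a log2 fold change of -0.96 (SE 0.19) with an adjusted p of 0.022 by edgeR and 0.000257 by DESeq2. HCFC1, a chromatin-associated cofactor, was at 216.0 and 229.7 CPM against 145.4, 155.9 and 150.8 CPM, a log2 fold change of -0.56 (SE 0.13) with an adjusted p of 0.0382 by edgeR and 0.000723 by DESeq2. GABPA, the DNA-binding partner of GABPB1, was at -0.29, YY1 at -0.20 and MYC at 0.01. ESRRA, an orphan nuclear receptor, was at 6.52 and 13.6 CPM in DMSO and 24.0, 19.6 and 27.1 CPM in doxorubicin, a log2 fold change of 1.23 (SE 0.34) with an adjusted p of 0.058 by edgeR and 0.00519 by DESeq2. At an adjusted p under 0.01 edgeR called 1 of the 11, E2F1, against 2.73% of all genes lower. DESeq2 called 4 lower and 1 higher, against 8.02% of all genes lower and 14.6% in either direction. The mRNA of these factors was measured and their activity was not. The 7 members with GCATGCG in the promoter had a median log2 fold change of -0.18, against 0.009 without it, the 28 with CCGGAAG 0.05, against -0.06, the 23 with ATGGCGG -0.07, against 0.03, and the 6 with CACGTG 0.003, against 0.003. These medians are descriptions, and their differences were not tested.

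Many of these genes share a start region with a neighbour. Of the 68 promoters, 22 (32.4%) had a gene on the opposite strand starting within 1000 bases, against 23.4% of the promoters of tested genes. In 16 of the 22 the neighbour was tested, and in 9 of the 16 it had the same sign as the member. MRPS11 and MRPL46 are each other's neighbour, so this pair, with opposite signs, enters the 16 from both sides. MRPL57, a mitochondria-specific protein of the large subunit (chr13:21176658-21179084), starts 106 bases from SKA3, which encodes a part of the spindle and kinetochore complex. SKA3 was at 46.1 and 49.0 CPM in DMSO and at 3.44, 5.95 and 3.11 CPM in doxorubicin, and it fell by 3.52 on the log2 scale (SE 0.30, adjusted p 0.00141 by edgeR). MRPL57, across the 105 bases printed above, was at 27.0 and 27.3 CPM in DMSO and at 21.0, 24.4 and 23.5 CPM in doxorubicin, a log2 fold change of -0.24 (SE 0.16).

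MRPL57 thus had the sign of its neighbour and lay below DMSO in every doxorubicin library, with an adjusted p of 0.346 by edgeR. At MRPL51 and MRPL27 the member had the opposite sign and its groups overlapped. MRPL51, the most highly expressed member per length (chr12:6491886-6493262), starts 840 bases from NCAPD2, a subunit of condensin. NCAPD2 fell from 244.6 and 333.6 CPM to 102.1, 86.1 and 91.3 CPM, by 1.63 on the log2 scale (SE 0.18, adjusted p 0.00323 by edgeR). MRPL51 was at 70.7 and 78.4 CPM in DMSO and at 72.7, 79.2 and 73.0 CPM in doxorubicin, with a 95% interval from -0.32 to 0.33 around a log2 fold change of 0.008. MRPL27 (chr17:50367867-50373184) starts 45 bases from EME1, which encodes a partner of the MUS81 endonuclease. EME1 was at 9.12 and 11.7 CPM in DMSO and at 2.40, 3.87 and 2.20 CPM in doxorubicin, a log2 fold change of -1.89 (SE 0.32) with an adjusted p of 0.0127 by edgeR and 4.6e-06 by DESeq2. MRPL27 was at 16.9 and 23.9 CPM against 22.4, 20.6 and 20.2 CPM, a log2 fold change of 0.05 (SE 0.20). These 3 pairs were picked after their values were seen, for the size of the neighbour's change. The edgeR call of SKA3 was lost without either DMSO library, with adjusted p of 0.0101 and 0.0142, and that of NCAPD2 without any library but the first DMSO one, with at most 0.019, while the log2 fold changes stayed between -3.86 and -3.34 and between -1.85 and -1.41.

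In MRPS11 and MRPL46, which start 320 bases apart, both genes of the pair are members. MRPS11, of the small subunit, was at 28.6 and 24.9 CPM in DMSO and at 21.0, 23.4 and 21.0 CPM in doxorubicin, a log2 fold change of -0.30 (SE 0.16). MRPL46, of the large subunit, was at 12.02 and 14.7 CPM against 12.6, 16.4 and 14.6 CPM, a log2 fold change of 0.12 (SE 0.20). Neither passed a test. MRPL49 starts 49 bases from FAU, which encodes a cytosolic ribosomal protein fused to a ubiquitin-like protein. MRPL49 was at 48.3 and 58.5 CPM against 61.3, 79.1 and 73.7 CPM and FAU at 93.2 and 116.9 CPM against 137.2, 122.2 and 132.5 CPM. In both, all doxorubicin libraries lay above DMSO, with log2 fold changes of 0.42 and 0.31 and an adjusted p by edgeR of 0.162 and 0.232.

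**Figure D4:**
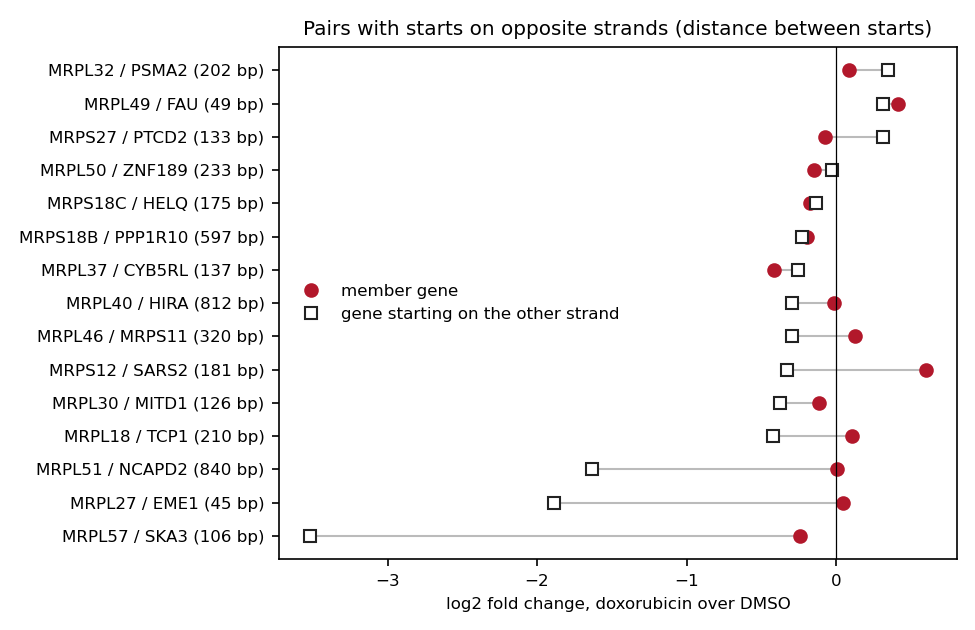
Log2 fold change, doxorubicin over DMSO, of members (filled circles) and of the gene that starts within 1000 bases on the opposite strand (open squares), one pair per row with the distance between the starts. SKA3, EME1 and NCAPD2 lie at -3.52, -1.89 and -1.63, while the members beside them lie at -0.24, 0.05 and 0.008.

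Reads from overlapping genes and from copies could enter these counts. In RefSeq, 32 of the 77 genes overlap another gene and 45 do not. Named pseudogenes exist for 42 of them, 106 in all, and 3 of these had rows of their own in the count table. MRPS34 and MRPL3 overlap other genes, whereas MRPL22, MRPL53 and MRPL10 overlap none. MRPL3, MRPL22 and MRPL53 have 1 named pseudogene each, and MRPS34 and MRPL10 have 0.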

How the data were processed

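The authors selected poly-A RNA, mapped the paired reads with STAR to hg38 and counted them per gene with featureCounts. They deposited these counts without normalization. The library kit was stranded. The sources used here give neither tool versions nor the strand setting of the counting. The authors' second table holds their own fold changes and p-values for genes past their threshold and was not used.

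Differential expression was tested with edgeR 4.0.16 under R 4.3.3 (quasi-likelihood test, TMM normalization, minimum count 10 and minimum total 15, no covariates), which kept 14187 of 26485 genes. The 3 doxorubicin libraries were pooled against 2 DMSO libraries, as in the study, and the doses were compared in a fit of 3 conditions. Adjustment was by Benjamini-Hochberg over all genes tested, with a threshold of 0.01. DESeq2 1.42.0, limma 3.58.1 (voom) and the other alternatives are given in the closing section. The edgeR, DESeq2 and limma voom tests of doxorubicin against DMSO were also run on simulated counts with known changes. The fit of 3 conditions and the fit with a replicate block were not. Standard errors follow from each log2 fold change and its F statistic. CPM values are TMM-normalized, with a prior count of 2 only for the log2 CPM behind library differences. Libraries of one condition differed far beyond sampling noise and were counted separately. The study calls them biological replicates.

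The members, gene lists and tests were chosen with earlier results of these data known. Genes were named by a rule: the members past the threshold, the 4 largest values in each direction, members fixed by their role, the smallest p between the doses, and called genes of the lists. Other genes were named after their values were seen. Positions and promoters are from RefSeq on GRCh38.p14, where 76 members matched by symbol and 1 by an older symbol. Transcript length and GC content came from GENCODE canonical transcripts.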

Additional observations from a re-analysis of the deposited data

How the results depend on the processing

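The count of members called at an adjusted p under 0.01 was 0 with edgeR and 2 with DESeq2 (MRPS34 and MRPL3), and the same 2 passed at an adjusted p under 0.05 with edgeR. It was 0 under every other alternative run: limma voom, 3 other scalings, 2 other filters, thinned counts, single doses, the replicate block and leaving out each library. With so few libraries a count of 0 says little about changes of the size of the intervals given or smaller. Somewhat larger changes could also be missed, because the intervals are not adjusted for the number of genes tested.

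The count of all genes called, 571, depended on the setting. It was 2073 with DESeq2, 1020 with no filter on low counts, 1927 at an adjusted p under 0.05, 178 with the 0.2 μM libraries alone, 171 for 0.2 μM and 89 for 0.34 μM in the fit of 3 conditions, and 49 to 215 on leaving out a library, lowest without the second DMSO library. The cause was not tested.

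With the replicate number as a block, for DMSO and 0.2 μM only, 1249 genes and 0 members were called. The deviations of the DMSO pair and the 0.2 μM pair correlated at 0.528 across genes, but with 2 pairs and no label that ties them, the samples share only a number. The block moved the members' median to 0.03.

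The members' median (0.008) lay between -0.02 and 0.05 under the other scalings and between -0.14 and 0.10 on leaving out a library. Between the doses it stayed at or below 0.006. The respiratory chain stayed above 0 and the regulators below 0 in each setting run.

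Among the members named by the rule, the sign turned for MRPS35 (0.0133 with the 0.2 μM libraries alone, 0.0152 in the fit of 3 conditions and 0.0121 with the block), MRPL12 (0.0325 with the block) and MRPL32 (-0.0854 for 0.34 μM). On leaving out a library the ranges that crossed 0 were -0.51 to 0.24 for MRPS35, -0.56 to 0.45 for MRPL12, -0.0825 to 0.24 for MRPL32, -0.46 to 0.0721 for MRPL47, -0.44 to 0.0714 for MRPS18B, -0.32 to 0.0008 for MRPL24, -0.27 to 0.0866 for MRPL11, -0.20 to 0.0688 for MRPS30 and -0.21 to 0.71 for MRPL23. In most of these the turn came without the second DMSO library. MRPS34 and MRPL3 had a negative value under each alternative.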

Other observations

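A further 4 genes lay higher in every doxorubicin library without a small p. MRPL28, with a bacterial counterpart in the large subunit, was at 28.9 and 47.4 CPM in DMSO, 52.9 and 50.4 CPM at 0.2 μM and 50.4 CPM at 0.34 μM, so that the doxorubicin libraries were almost alike and the DMSO libraries were apart. MRPL33 was at 38.1 and 33.5 CPM against 40.3, 56.3 and 44.5 CPM. MRPL44, whose protein carries an RNase III fold, was at 27.4 and 31.1 CPM against 35.6, 43.9 and 32.3 CPM. MRPS23, a mitochondria-specific protein of the small subunit, was at 18.2 and 26.9 CPM against 28.2, 32.6 and 30.7 CPM. Their log2 fold changes were between 0.35 and 0.44, with an adjusted p between 0.214 and 0.262 by edgeR. On leaving out a library the values ran from 0.10 to 0.80 for MRPL28, 0.17 to 0.73 for MRPS23, 0.25 to 0.50 for MRPL33 and 0.22 to 0.45 for MRPL44, lowest for MRPL28 and MRPS23 without the first DMSO library and highest without the second.

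The sign of the fold change was negative in every fit that left out a library for 18 of the 77 genes and positive in every such fit for 23. The fits share libraries, and the same share over all genes was not counted. These counts are therefore a description and cannot be read as many or few.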
